A study of Mus musculus with 15 samples.

Results

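Nascent transcription was compared between bone marrow derived macrophages labelled as a double knockout (DKO) of RevErbalpha and RevErbbeta and floxed controls labelled WT. The libraries were GRO-seq, which reads RNA that polymerase is still making: nuclei are isolated, engaged polymerases are run on with bromo-UTP, and the labelled RNA is pulled down and sequenced. They are the 2 samples labelled WT and DKO of the 15 in the series, and the values are those of 1220 gene IDs (1205 symbols, 45 IDs of non-coding transcripts) and of 1544 sites bound by both RevErbs in RAW cells, a mouse macrophage line. A gene is in the table only where it was assigned at least 1 of these sites. Both samples had a C57Bl6 background and floxed alleles of both genes (RevErbalpha flox/flox; RevErbbeta flox/flox), and the DKO sample also carried Tie2-Cre. Macrophages were grown from bone marrow in RPMI with L-cell conditioned medium and then with M-CSF. The Tie2 promoter drives Cre in endothelial and blood-forming cells, and so before the macrophages arise. The sources used here do not give age, number of animals or extent of deletion. Each genotype is 1 sample with 2 runs at gene level and 1 column at site level. With 1 sample a group there is no test, and nothing says that the runs were separate preparations, so the spread between runs may be technical.

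RevErbalpha (gene Nr1d1) and RevErbbeta (gene Nr1d2) are nuclear receptors that repress transcription. They bind DNA elements built on the core AGGTCA and recruit the corepressor NCoR with the histone deacetylase HDAC3. In the circadian clock they repress Arntl, which encodes the activator BMAL1, and the related gene Npas2, and RevErbalpha represses its own gene. In macrophages they are known to repress inflammatory genes. Enhancers, which act on genes from a distance, are themselves transcribed into short RNAs, and the study concerned how RevErbs act on this transcription and on the genes it goes with.

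The promoters of Nr1d1 and Arntl are shown because RevErb sites lay beside the starts of these genes and both genes were higher in the library labelled DKO. They are given 5′ to 3′ from RefSeq (GRCm38.p6, 250 bases before to 50 after the start), Nr1d1 from the minus strand and Arntl from the plus strand. Capitals mark matches to AAAGTNNGT, a pattern chosen after the promoters were read, and to TAGGTCA.
Nr1d1: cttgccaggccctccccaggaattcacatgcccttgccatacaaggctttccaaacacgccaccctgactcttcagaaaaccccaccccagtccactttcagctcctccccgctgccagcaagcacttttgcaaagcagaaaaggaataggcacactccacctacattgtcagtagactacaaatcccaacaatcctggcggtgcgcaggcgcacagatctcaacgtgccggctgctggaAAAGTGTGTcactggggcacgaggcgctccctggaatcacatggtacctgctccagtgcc
Arntl: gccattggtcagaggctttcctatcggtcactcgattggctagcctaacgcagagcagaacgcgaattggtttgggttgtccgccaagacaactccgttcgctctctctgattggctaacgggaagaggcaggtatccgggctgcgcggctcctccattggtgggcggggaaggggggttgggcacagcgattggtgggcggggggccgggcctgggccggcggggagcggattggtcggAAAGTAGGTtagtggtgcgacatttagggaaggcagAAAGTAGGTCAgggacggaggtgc
The Nr1d1 match covers bases 241 to 249 of the window. Arntl, shown by the later of its 2 RefSeq starts, has matches at bases 241 to 249 and 277 to 285, and the latter runs on into TAGGTCA at bases 281 to 287. Of 32544 distinct promoters of this length, 3.24% hold AAAGTNNGT on either strand, 2.61% hold TAGGTCA and 16.2% hold AGGTCA, where each TAGGTCA also counts as an AGGTCA. Of the 24 genes described below as higher, 18 have a promoter in the table, and 2 of these, Arntl and the non-coding E230029C05Rik, hold AGGTCA. A match describes letters in this window and does not show a bound site.

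Values of genes and sites are log2 signal as deposited. Gene values are not per length, so where genes are ranked by level, as at the quartile used below, the level mixes signal with gene length. Each difference is the mean of the DKO runs minus the mean of the WT runs, and a difference of 1 is a 2-fold ratio. Gene run totals in the header came to 38013896 and 43562501 tags in the WT runs, and to 46649007 and 34852906 in those of DKO. Most genes differed little. The median difference was 0.035, the 5th and 95th percentiles were -0.22 and 0.37, and 1008 genes (82.6%) differed by less than 0.25. The median gap between single runs of 1 genotype was 0.17 in WT and 0.15 in DKO. The median absolute difference between genotypes was 0.105, but it compares means of 2 runs, which vary less than single runs. The gap between runs was 0.28 in both genotypes in the lowest of 4 level groups and 0.13 and 0.10 in the highest.

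Genes are therefore called higher or lower only where WT and DKO runs did not overlap and the difference was 0.5 or more in size. By this rule 24 genes (1.97%) were higher and 9 (0.738%) were lower in the library labelled DKO. Without the size rule, both DKO runs lay above both WT runs at 224 genes (18.4%) and below at 122 (10.0%). That balance depended on scaling. DKO run 2 had a median of 0.06 and 0.08 above the WT runs, and DKO run 1 of 0.00 and 0.02. After each run was centred on its median, 168 genes were above and 202 below, so that the share above was 45.4% in place of 64.7%. Quantile normalization gave 175 and 191 (47.8%). The calls with the size rule were 20 and 10 after centring and 17 and 13 after quantile normalization.

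Most called genes had little signal. Of the 24, 17 lay below the lower quartile of gene level (8.43), as did 8 of the 9. The 7 higher genes at or above the quartile were Nr1d1, Cx3cr1, Arntl, Npas2, Slc15a3, Arhgap25 and Slc7a8, and the lower one was Galnt18. Level is the mean of all 4 runs, so the genotype with more signal can carry a gene past the quartile. Nr1d1 had means of 7.695 in WT and 9.5 in DKO and passed only through DKO. Galnt18 had 8.775 in WT and 8.13 in DKO and passed only through WT. The difference was larger than the sum of both run gaps at 15 of the 24 and at 2 of the 9. When each of the 4 runs was left out in turn, 13 of the 24 and 3 of the 9 met the rule every time.

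**Figure D1:**
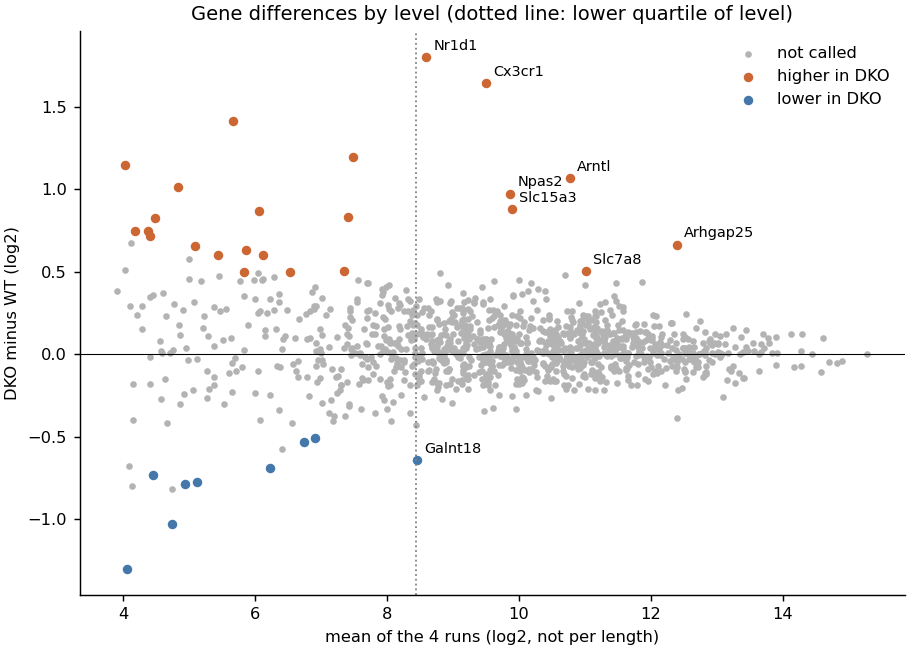
DKO minus WT GRO-seq difference (log2, y axis) against the mean of the 4 runs (log2, x axis) for 1220 genes, with the 24 higher genes in orange, the 9 lower genes in blue and the others in grey. The dotted line is the lower quartile of level, 8.43, and most coloured points lie to its left, where the spread of grey points is also wider.

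Of the 7 better measured higher genes, those at or above the quartile of level, 3 belong to the circadian clock. Nr1d1 is among them only through its DKO runs. Of 27 listed clock genes 9 had a value, 3 of these were higher and none was lower, against 1.97% and 0.738% of all genes. Nr1d1 itself read 7.91 and 7.48 in WT and 9.44 and 9.56 in DKO, a difference of 1.81. All DKO values lay above all WT values, and with any run left out the difference was 1.59 to 2.02. Nr1d1 was a targeted gene, but the interval counted is not given, so its signal could come from parts that Cre leaves in place and does not check the label. Its 3′ end also overlaps Thra on the opposite strand, and whether counting used strand is not given. Nr1d2 was not analysed here.

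Arntl read 10.17 and 10.31 in WT and 11.37 and 11.25 in DKO, a difference of 1.07 (1.0 to 1.14 with a run left out). Npas2, which encodes a partner of BMAL1 that can stand in for CLOCK, read 9.47 and 9.30 in WT and 10.38 and 10.34 in DKO, a difference of 0.98 (0.89 to 1.06). Runs of 1 genotype lay within 0.17 of each other at both genes, far less than the genotypes. The 6 other measured clock genes were not called. Clock, whose protein pairs with BMAL1, read 11 and 11.08 in WT and 11.11 and 10.93 in DKO. The repressor genes Per1 (0.21) and Cry1 (0.12), Arntl2 (-0.14) and the deubiquitinase gene Usp2 (-0.17) also had overlapping runs. Bhlhe40, a repressor of BMAL1 targets, had both DKO runs below both WT runs, at 7.94 and 7.96 against 8.25 and 8.02 (-0.19). Over the 9 genes the median was 0.12, against 0.035 for all genes, and over the 5 at or above the quartile of level it was 0.98. These 5 include Nr1d1, which passed the quartile only through its DKO runs.

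**Figure D2:**
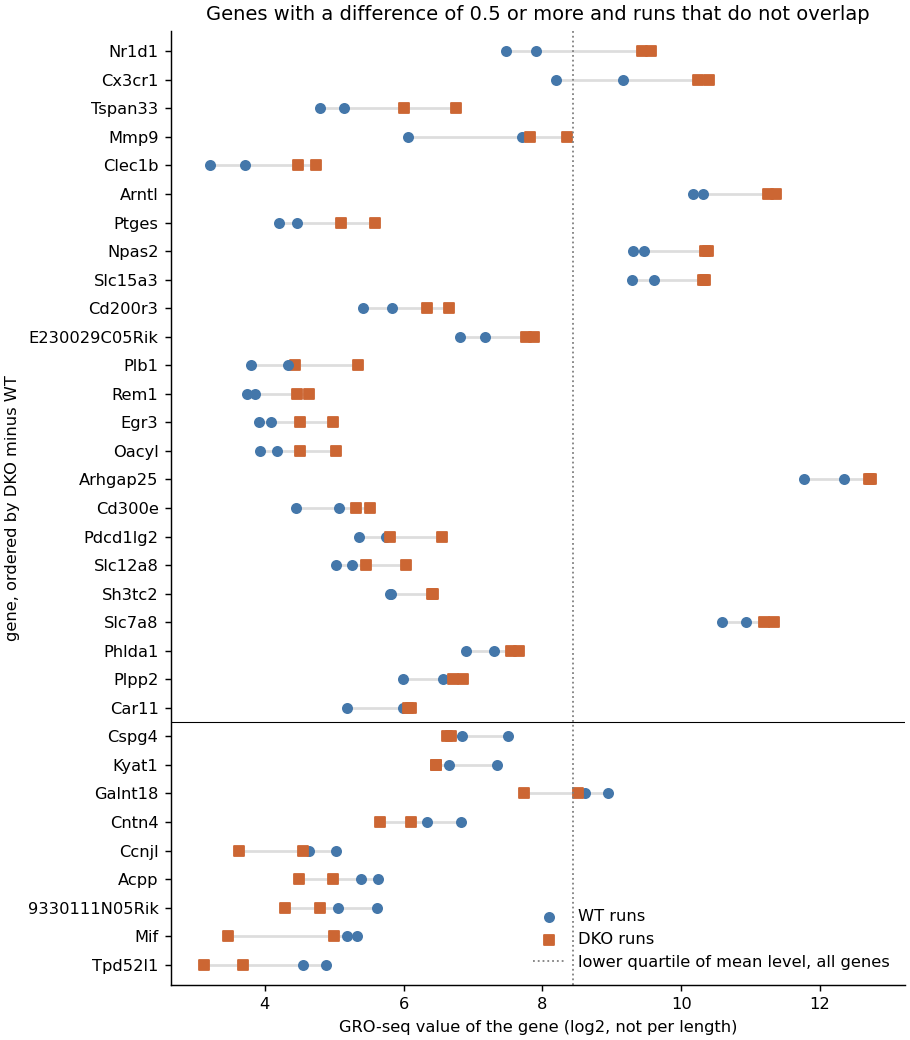
GRO-seq value (log2, not per length, x axis) of each WT run (blue circles) and DKO run (orange squares) for the 24 higher genes above the horizontal line and the 9 lower genes below it. Nr1d1, Cx3cr1, Arntl, Npas2 and Slc15a3 show wide gaps between the genotypes right of or across the dotted lower quartile of level, whereas the circles and squares of Mmp9, Car11, Pdcd1lg2, Galnt18 and Ccnjl nearly touch.

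Among the other listed genes, Cx3cr1 had the widest difference. It encodes the receptor of the chemokine fractalkine and marks resident macrophages and microglia. It read 8.19 and 9.16 in WT and 10.24 and 10.40 in DKO, a difference of 1.65. The WT runs lay 0.97 apart, and leaving out run 1 or run 2 of WT gave 1.16 or 2.13. Slc15a3, a lysosomal histidine and peptide transporter that serves innate signalling, read 9.61 and 9.29 in WT and 10.35 and 10.31 in DKO, a difference of 0.88 (0.72 to 1.04). The 2 DKO runs were within 0.04 of each other and both were above WT.

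Mmp9 encodes a secreted gelatinase that cuts extracellular matrix. It read 7.71 and 6.07 in WT and 7.82 and 8.36 in DKO, a difference of 1.20. WT run 1 lay 0.11 below the lower DKO run and 1.64 above the other WT run, so the size of this difference depended on 1 run. It was 0.38 without WT run 2, which ends the call, and 2.02 without WT run 1. Arhgap25, a GTPase-activating protein of blood cells that acts on Rac, read 12.35 and 11.77 in WT and 12.71 and 12.74 in DKO, a difference of 0.67. Here too the call was lost without WT run 2 (0.38). Slc7a8, an amino acid transporter, read 10.59 and 10.93 in WT and 11.34 and 11.19 in DKO, a difference of 0.51. It was not called without WT run 1 (0.34) or without DKO run 1 (0.43).

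The 16 further higher genes had means of 4.04 to 7.41 over the 4 runs. Tspan33, a tetraspanin, read 4.79 and 5.14 in WT and 6.0 and 6.76 in DKO, a difference of 1.42. Ptges, the inducible prostaglandin E synthase, read 4.20 and 4.46 in WT and 5.10 and 5.59 in DKO, a difference of 1.02. Sh3tc2 had the closest runs, with 5.81 and 5.82 in WT and 6.42 and 6.41 in DKO, a difference of 0.60. These 3 met the rule with any run left out, as did Clec1b (1.15), a C-type lectin receptor, Cd200r3 (0.87), an activating receptor of the CD200 receptor family, the non-coding E230029C05Rik (0.83), Rem1 (0.75), a small GTPase, and the transcription factor gene Egr3 (0.75). Calls of 8 genes were lost without at least 1 run. Plb1, a phospholipase (0.83), had 0.38 without DKO run 2, and Oacyl (0.72) had 0.46 without DKO run 1. Cd300e (0.66), an activating receptor of myeloid cells, had 0.35 without WT run 2. Pdcd1lg2 (0.63), which encodes the checkpoint ligand PD-L2, had 0.43 without WT run 2 and 0.25 without DKO run 2. The ion transporter gene Slc12a8 (0.61) had 0.495 without WT run 2 and 0.32 without DKO run 1, and Phlda1 (0.51) had 0.31 without WT run 1 and 0.45 without DKO run 2. Car11 (0.50), a gene of the carbonic anhydrase family, had 0.095 without WT run 2 and 0.485 without DKO run 2, and the lipid phosphatase gene Plpp2 (0.50) had 0.21 without WT run 1 and 0.43 without DKO run 1.

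The 9 lower genes were less distinct. Galnt18, a glycosyltransferase gene and the only one at or above the quartile of level, read 8.61 and 8.94 in WT and 8.52 and 7.74 in DKO, a difference of -0.65. Its upper DKO run lay 0.09 below the nearer WT run, and the call was lost without DKO run 2 (-0.26) and without WT run 2 (-0.48). Tpd52l1 had the widest separation, with 4.55 and 4.88 in WT and 3.13 and 3.69 in DKO, a difference of -1.31 (-1.59 to -1.03). Mif, the cytokine macrophage migration inhibitory factor, read 5.19 and 5.33 in WT and 3.47 and 4.99 in DKO, a difference of -1.03. Without DKO run 1 this was -0.27 and without the other DKO run -1.79, so 1 run set its size. The non-coding 9330111N05Rik (-0.79) and Acpp (-0.78), a prostatic acid phosphatase gene, met the rule with any run left out. Ccnjl (-0.74) had -0.28 without DKO run 1, and Kyat1 (-0.54), an aminotransferase gene, had -0.19 without WT run 1. Cntn4 (-0.69), a cell adhesion gene, had -0.45 without WT run 2 and -0.47 without DKO run 2, and the proteoglycan gene Cspg4 (-0.51) had -0.18 without WT run 2 and -0.48 without DKO run 1.

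Medians of the other gene lists of 3 or more measured genes lay between -0.0025 and 0.21, against 0.035 for all genes and an upper quartile of 0.14. Those of pattern recognition, proteases and glycolysis were above that quartile, without a test. With 1 run left out they ran from 0.055 to 0.2525, 0.0875 to 0.2725 and -0.0075 to 0.39. Each list could thus fall below 0.14, depending on the run left out. Of 56 listed genes of pattern recognition and NF-kB signalling 14 had a value, of which Clec1b and Slc15a3 were higher and none was lower. Both DKO runs were above both WT runs at 7 of the 14 and below at none, against 18.4% and 10.0% of all genes, and the median difference was 0.21 (0.15 at or above the quartile of level). Besides the higher pair these were the bacterial sensor gene Nod2, at 9.02 and 8.92 in WT and 9.30 and 9.20 in DKO, and Tlr2, Ikbke, Nlrp3 and Cd14, with differences of 0.15 to 0.28. The 7 were not counted again with centred runs, which took all genes above from 224 to 168. Tlr4, the receptor of lipopolysaccharide, had overlapping runs (-0.11), as did the adaptor genes Myd88 (0.03) and Ticam1 (0.05). Of the 64 cytokine, chemokine and receptor genes 19 had a value, with Cx3cr1 higher, Mif lower and a median of 0.095. Tnf read 10.38 and 10.43 in WT and 10.25 and 10.72 in DKO, and Ccl3 9.11 and 8.64 against 8.63 and 9.15. Csf1r, the M-CSF receptor gene, read 12.71 and 12.33 in WT and 12.52 and 12.71 in DKO. All 3 overlapped. Cxcr4 (0.32) and Ccrl2 (0.45), receptors of chemokines, overlapped as well.

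Extracellular proteases and inhibitors had 14 of 38 genes with a value and a median of 0.19 (0.12 at or above the quartile). Apart from Mmp9, both DKO runs were above at Mmp19 (0.38), the osteoclast collagenase gene Ctsk (0.26) and Adam17 (0.24), which sheds TNF from the membrane, and below at the urokinase receptor gene Plaur (-0.19). Adam17 read 11.33 and 11.26 in WT and 11.48 and 11.59 in DKO. Lipid and eicosanoid genes had 18 IDs with a value for 60 genes and a median of 0.06. Only Ptges was higher by the rule, and Plin2, which coats lipid droplets, read 11.46 and 11.06 in WT and 11.58 and 11.81 in DKO (0.44). The cholesterol exporters Abca1 (0.045) and Abcg1 (-0.01), the scavenger receptor Cd36 (-0.12), the phospholipase gene Pla2g4a (-0.17) and the cyclooxygenase gene Ptgs1 (-0.18) had overlapping runs.

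Transcription factors of macrophages had 23 IDs with a value for 47 genes, with none higher or lower, 5 above, 2 below and a median of 0.13. These counts were near the shares of all genes, 18.4% above and 10.0% below. Jun read 9.95 and 9.98 in WT and 10.27 and 10.53 in DKO, a difference of 0.44. The lysosome factor gene Tfeb, with 2 IDs (0.36 and 0.14), was above too, whereas Hif1a (-0.21), the hypoxia factor gene, and Mef2c (-0.26) were below. For Fos only DKO run 2 stood out, with 9.95 and 9.78 in WT and 9.84 and 10.62 in DKO, and its difference of 0.37 was -0.025 without that run. Dusp1, which encodes a phosphatase of MAP kinases, read 10.09 and 9.81 in WT and 10.04 and 10.63 in DKO (0.39, and 0.09 without DKO run 2). Among 7 of 27 corepressor and coactivator genes with a value the median was 0.065. Kdm6b, an H3K27 demethylase induced by inflammation, read 8.70 and 8.72 in WT and 9.03 and 9.23 in DKO (0.42). Cited2 (0.40) had both DKO runs above, and 0.14 without DKO run 2. The coactivator gene Ncoa3 (-0.05) was below.

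Genes of phagocytosis, adhesion and surface receptors had 14 of 57 with a value and a median of -0.0025, with Tspan33 the only higher one, and Tyrobp (0.21), Itgav (-0.15) and Clec4a2 (-0.19) overlapped. Ras, MAP kinase and small GTPase regulators had 24 IDs for 72 genes and a median of 0.063, with Arhgap25 higher, Plxna1 (0.36), Arhgap22 (0.25) and Mapkapk2 (0.15) above and Mapk6 (-0.23) and Vav3 (-0.085) below. Of the interferon response 5 of 34 had a value (median 0.11). Mx2 (0.26), given under an ID of a non-coding transcript, and Trim25 (0.21) were above, and Socs1 (0.11) and Oasl2 (0.075) overlapped. Glycolysis and hypoxia genes had 6 of 33 (median 0.21, and 0.01 over the 3 at or above the quartile), where P4ha2 (0.34) was above and Egln3 (0.27), Slc2a6 (0.23) and Pfkp (0.20) overlapped. Lysosome and autophagy genes had 4 of 31 (median 0.13), with Slc37a2, at 11.73 and 11.58 in WT and 11.98 and 12.21 in DKO (0.44), and Sqstm1 (0.23) above and the hydrolase gene Gaa (0.02) overlapping. Of the housekeeping genes, Tfrc overlapped (-0.04).

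**Figure D3:**
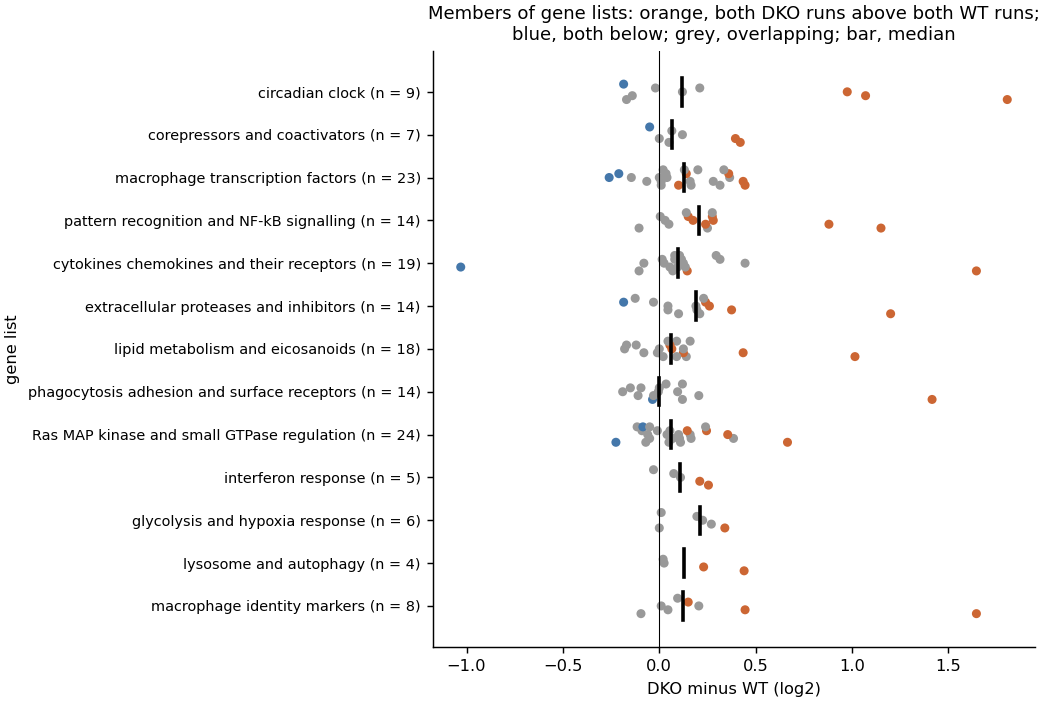
DKO minus WT difference (log2, x axis) of each measured member of 13 gene lists (y axis), in orange where both DKO runs lay above both WT runs, in blue where both lay below and in grey where they overlapped; black bars are list medians. The medians run from -0.0025 to 0.21, while 1 to 3 orange points stand far to the right in the clock, pattern recognition, cytokine, protease, lipid, phagocytosis and identity lists.

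Markers of the cell type were read where the table held them. Of 18 macrophage identity genes 8 had a value, with Cx3cr1 higher, 3 above, none below and a median of 0.12. Of all genes 18.4% were above and 10.0% below. Csf1r, Ctss (0.045), Tyrobp (0.21) and Fcgr1 (-0.095) had overlapping runs. None of 15 neutrophil, 13 dendritic cell and 17 lymphocyte markers was in the table, so these cell types were not analysed here. Of 15 mast cell, basophil and platelet markers, Clec1b was higher at low level, and Pf4 read 7.47 and 7.43 in WT and 7.48 and 7.49 in DKO (0.035). Of 15 endothelial and stromal markers only Vwf was measured, at 9.54 and 9.70 in WT and 9.72 and 9.92 in DKO (0.20). The part of other cells in Clec1b, known from platelets, and Cd200r3, known from basophils and mast cells, was not tested. In such bulk libraries, more cells that make an RNA and more of it per cell cannot be told apart.

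The genes of highest level and those with the most sites had small differences. The 10 of highest level differed by -0.11 to 0.12: Zeb2, Osbpl8, Pid1, Elmo1, Runx1, Cdk14, Tns3, Zmiz1, Dab2 and Dennd1a. Zeb2, a repressor that keeps macrophages in their tissue identity, read 15.44 and 15.12 in WT and 15.26 and 15.30 in DKO. Spred1, an inhibitor of Ras signalling with 9 sites, read 12.75 and 13 in WT and 12.78 and 12.74 in DKO. Reep3 with 6 sites had 0.00, and Lpp with 5 had -0.09. Of the 9 genes with 4 sites, Cited2 and Plxna1 had both DKO runs above, and Cyth4 (0.16), Irf2bp2 (0.12), Irf2bpl (0.05), Emp1 (0.02), Enpp6 (-0.025), Itpkb (-0.05) and Tgm2 (-0.17) overlapped.

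Grouped by properties of their sites, genes with strong sites, several sites or a nearest site at 1 to 30 kb had more members above, and genes with a site within 1 kb did not (16.1%, against 18.4% of all genes). Among 244 genes in the strongest of 5 binding groups, measured by ChIP-seq in RAW cells at the strongest site of each gene, 13 (5.33%) were higher and 1 (0.410%) lower. In the weakest group of 245 genes it was 1 of each. The median difference was 0.065 in the strongest group and 0.025 in the weakest. With 1 run left out they ran from 0.0325 to 0.115 and from -0.01 to 0.05. Both DKO runs were above at 26.6% of the strongest group and 14.3 to 17.7% of the others. By number of sites, 14 of 982 genes (1.43%) with 1 site were higher, 5 of 172 (2.91%) with 2 and 5 of 66 (7.58%) with 3 or more. The last had a higher median level (11.04) than genes with 1 site (9.69), and levels were not matched.

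Differences also varied a little with the distance from a gene's start to its nearest site. With the nearest site within 1 kb the median difference was 0.03, at 1 to 10 kb 0.08, at 10 to 30 kb 0.07, at 30 to 100 kb 0.01 and beyond 100 kb -0.02. With 1 run left out these ran from -0.005 to 0.04, 0.025 to 0.15, 0.04 to 0.1125, -0.005 to 0.02 and -0.05 to 0.01. At 1 to 10 kb both DKO runs were above at 67 of 315 genes (21.3%) and below at 18 (5.71%). At 10 to 30 kb these were 67 (22.8%) and 21 (7.14%) of 294, and beyond 100 kb 11 (8.40%) and 22 (16.8%) of 131. Over all genes the shares were 18.4% and 10.0%. Of the 24 higher genes 17 (70.8%) had their nearest site at 1 to 30 kb, against 609 of all 1220 (49.9%), and 3 (12.5%) had it within 1 kb, against 149 (12.2%). With each run centred on its median the counts were 55 and 42 for 1 to 10 kb and 51 and 35 for 10 to 30 kb. They were 20 and 28 within 1 kb, 36 and 66 for 30 to 100 kb (331 genes), and 6 and 31 beyond 100 kb. Centred counts over all 1220 genes were 168 and 202. In the strongest binding group they were 57 and 39 in place of 65 and 25. After centring, genes above still outnumbered genes below at 1 to 30 kb and in the strongest binding group, while within 1 kb and at 30 to 100 kb the balance turned to genes below. The chromatin class of the strongest site made little difference: the median was 0.025 where H3K4me3 exceeded H3K4me1, 0.035 at genic enhancer-like and 0.045 at intergenic enhancer-like sites.

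**Figure D4:**
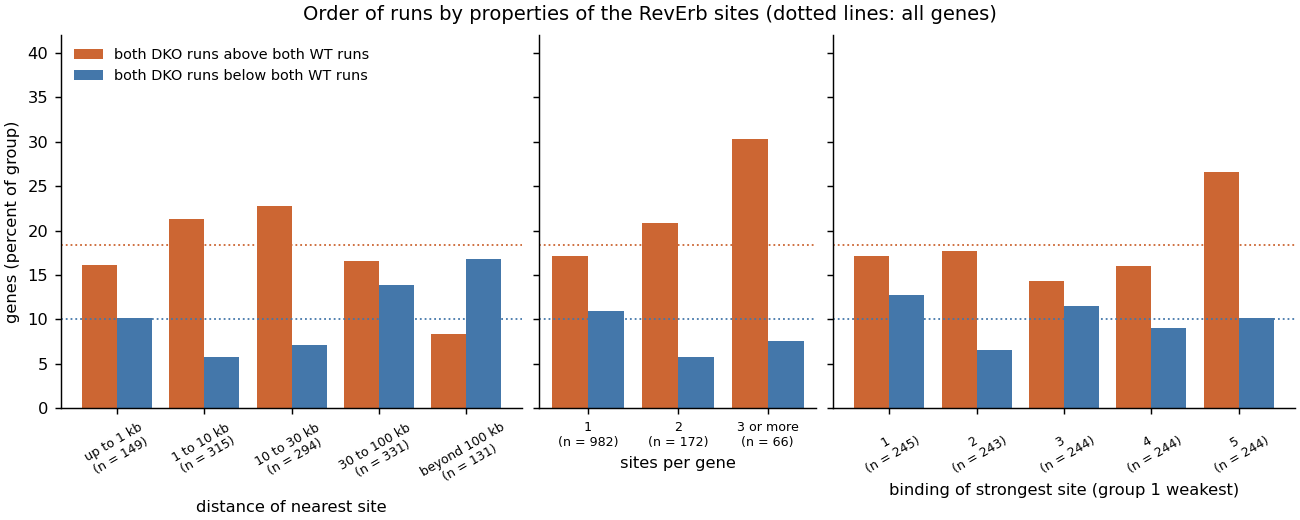
Percent of genes (y axis) with both DKO runs above (orange) or below (blue) both WT runs, by distance of the nearest RevErb site, number of sites and group of binding at the strongest site (1 weakest, 5 strongest), with n under each group and all genes as dotted lines at 18.4% and 10.0%. Orange bars are tallest at 1 to 30 kb, with 3 or more sites (30.3%) and in the strongest group (26.6%), and beyond 100 kb the blue bar (16.8%) is taller than the orange one (8.40%).

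At the sites themselves, GRO-seq was given as 1 WT and 1 DKO value, so no run spread could be seen. Site and gene values come from the same libraries, and sites within genes also count RNA of the gene, so they are given side by side. The difference of all 1544 sites had a median of 0.03 and 5th and 95th percentiles of -0.70 and 0.82. By a difference of at least 1, 52 sites (3.37%) were higher and 34 (2.20%) lower. The counts were 3 and 0 with 10 added before the logarithm, and 34 were higher after centring. Of the 52 higher and 34 lower sites by the main rule, 29 and 13 had a mean signal at or above the lower quartile of sites (2.17). In the strongest of 5 binding groups of sites 18 (5.83%) were higher and 4 (1.29%) lower, with a median of 0.095, and the weaker groups had medians of -0.02 to 0.035.

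The 24 higher genes had 39 sites, of which 33 (84.6%) had a DKO value above WT, against 811 of all sites (52.5%), 10 (25.6%) were higher by 1 and 1 (2.56%) was lower. Their median difference was 0.52. Positions are mm9, as deposited. The start of Nr1d1 had a site at chr11:98636608-98636764, 130 bp upstream, with 4.62 in WT and 5.80 in DKO. The site 1423 bp into the gene, at chr11:98635055-98635211, read 4.56 and 6.16, and the one 8318 bp upstream, at chr11:98644796-98644952, 4.25 and 4.60. The 2 nearer sites were higher by 1.18 and 1.60, and at both, RNA of the gene itself may be counted. At Arntl the site 67 bp after the start, chr7:120350968-120351124, read 2.69 in WT and 3.62 in DKO (0.93). A site 21279 bp upstream, chr7:120329622-120329778, read 1.08 and 2.21 (1.13), and the one 62917 bp upstream read 0.58 and 0.40. The Npas2 site 1401 bp upstream, chr1:39249638-39249794, read 1.10 and 2.45 (1.36), and that 62429 bp downstream 1.79 and 1.94.

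With 10 added before the logarithm, the site within Nr1d1 kept a difference of 1.30, and those at the Nr1d1 start (0.95), upstream of Arntl (0.29) and upstream of Npas2 (0.38) were no longer called. All 3 Cx3cr1 sites were higher by 1 or more, and all lie downstream of the start. The site at chr9:119967948-119968104, 9374 bp downstream and within the gene by its class, read 3.62 in WT and 4.82 in DKO (1.20). The intergenic enhancer-like sites at chr9:119952428-119952584 and chr9:119946631-119946787, 24894 and 30691 bp downstream, read 2.82 and 4.22 (1.40), and 4.20 and 5.58 (1.39). With 10 added, only the last of these kept its call, and the 3 differences were 0.80, 0.78 and 1.06. The other sites of the better measured genes differed by less than 1. Slc15a3 had 5.57 and 6.39 at chr19:10916872-10917028, 84 bp upstream, and 4.35 and 4.85 at 716 bp upstream. Arhgap25, at chr6:87449944-87450100, 3728 bp upstream, read 4.77 and 5.36 (0.59). The Slc7a8 sites 27176 and 13378 bp downstream differed by 0.74 and 0.18. The strongly bound site 5288 bp upstream of Mmp9, chr2:164768385-164768541, read 1.66 and 1.99 (0.33).

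**Figure D5:**
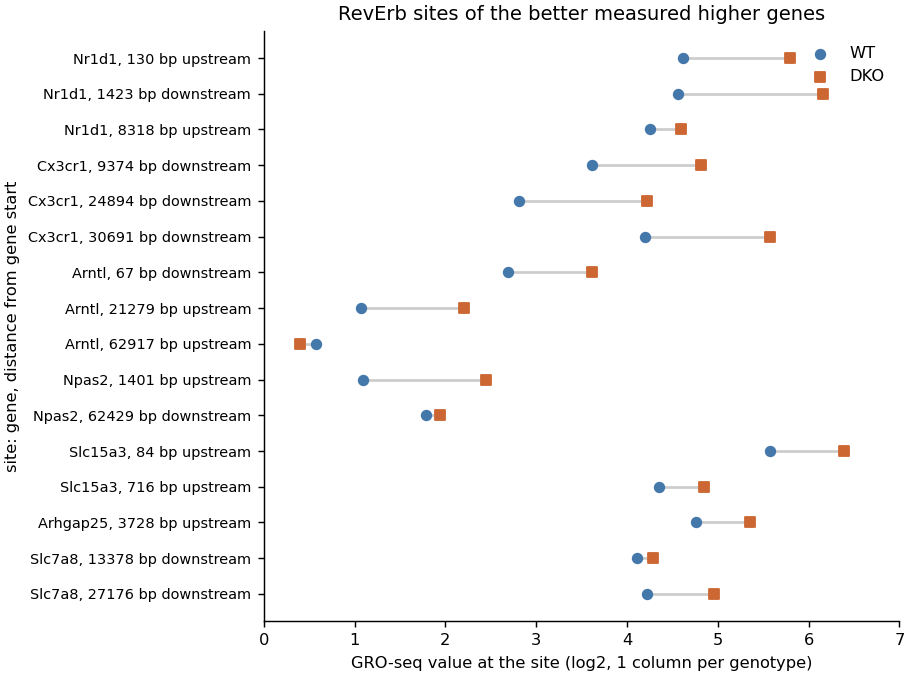
GRO-seq value (log2, x axis) in WT (blue circles) and DKO (orange squares) at the 16 RevErb sites of the 7 better measured higher genes, named by gene and distance from its start (y axis). The square lies right of the circle at 15 of 16 sites, and the exception is the Arntl site 62917 bp upstream.

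Site and gene did not always point the same way. Of the 10 sites with the widest difference at or above the quartile of signal, 3 were the Nr1d1 site within the gene and the outer Cx3cr1 sites. The first of the 10, at chr3:122046632-122046788, 69378 bp from the start of its assigned gene Dnttip2, read 2.58 in WT and 4.61 in DKO (2.03), while Dnttip2 itself differed by -0.10. Sites assigned to Tcf7l2 (1.71), Ptprs (1.68) and Kansl2 (1.68) stood beside gene differences of 0.035, 0.12 and 0.19. The Elmo2 site 6317 bp upstream read 1.99 and 3.68, and Elmo2, which helps Rac activation during engulfment, 11.14 and 11.17 in WT and 11.43 and 11.51 in DKO (0.32). The Rffl site differed by 1.32 and the gene by 0.34. Only 1 of the 10 was lower, assigned to Commd9 and 148364 bp from its start, with 3.20 and 1.71 (-1.49) beside a gene difference of -0.43. Signal is the mean of WT and DKO. The Tcf7l2, Elmo2, Ptprs and Kansl2 sites, at 1.565 to 1.99 in WT, passed the quartile of 2.17 only through DKO. The Commd9 site passed only through WT. With 10 added before the logarithm these differences were 0.63 to 0.75 and, at Commd9, -0.57. Those of the Dnttip2 and Rffl sites were 1.16 and 0.78. The Ptges site was lower (-1.18) although its gene was higher, and the Ccnjl site was higher (2.00) although its gene was lower. The 10 sites of the 9 lower genes had a median of -0.093, with 4 above 0, and the Galnt18 site had almost no signal (0.23 in WT and 0.13 in DKO).

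Gain of RevErbalpha was measured in other libraries. 5'GRO-seq, which reads capped nascent 5′ ends, was made from RAW cells without and with biotin-tagged RevErbalpha, 1 library each. The same sites can be read beside these libraries. Totals in the header were 18708148 tags in the control library and 7238710 in the tagged one. The median of tagged minus control over all sites was -0.23. At the Nr1d1 sites the tagged minus control values were -4.53 at the start, -4.47 within the gene and -1.43 upstream, where DKO minus WT was 1.18, 1.60 and 0.35. At Cx3cr1 they were -1.51, -0.75 and -2.12, at Arntl -1.38, -1.84 and -2.46, at Arhgap25 -2.72, at Mmp9 -3.37 and at Slc7a8 -1.65 and -2.29. The Arntl site with -2.46 was the one with a DKO minus WT of -0.18. Slc15a3 had -0.82 and -1.70, and the Npas2 sites had -0.45 and -0.07. Some tagged values were low. The site within Nr1d1 read 5.0 in control and 0.53 with tagged RevErbalpha, and the nearer Npas2 site 0.98 and 0.53. Of the 39 sites of higher genes 16 (41.0%) were lower by 1 or more with tagged RevErbalpha, and 1 was higher, against 309 (20.0%) and 76 (4.92%) of all sites. Of the 10 sites of lower genes 5 were lower with tagged RevErbalpha as well, so the larger share was not particular to higher genes. Of the 52 sites higher in the library labelled DKO 18 (34.6%) were lower with tagged RevErbalpha, and of the 34 lower ones 11 (32.4%), so sites at either end had a share above that of all sites. Of the 309, 18 (5.83%) were higher and 11 (3.56%) lower in DKO, with a median of 0.045. Across all 1544 sites Pearson's r between the 2 differences was -0.050 and Spearman's rho -0.005, and at the 309 sites of the strongest binding group -0.19 and -0.16. These describe sites of 4 libraries from different cells and assays.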

How the data were processed

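GRO-seq of 1 WT and 1 DKO macrophage sample was taken from a table that the authors deposited for sites common to RevErbalpha and RevErbbeta. The submitters' processing notes name Bowtie 0.12.7, HOMER and the build mm9. Values are log2 signal per the file headers, as if 1 had been added before the logarithm, with a scaling factor of 1 for gene runs; how genes were counted is not given in the sources used here. Site values of GRO-seq end on a 5 in the third decimal at 793 (WT) and 788 (DKO) sites, as means of runs would. Treated libraries are also listed in the header, and it is not stated if a run here was one of them. Log2 values hold no counts, so counting error is unknown.

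From these, genes were taken once per ID, runs were averaged and differences recomputed (Python 3.11.15, pandas 2.3.3, numpy 2.4.6). The 2 runs of a genotype count as 1 replicate, so no statistical test was made. The gene rule was a difference of 0.5 with runs not overlapping, and the site rule a difference of 1. Binding is the mean of 3 ChIP-seq runs of each RevErb. The column named BirA, 1 in number, was not used. Symbols come from a RefSeq table (GRCm38.p6, 1208 of 1220 IDs matched, names only). Sites, classes and assigned genes are the authors'.

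Members and lists were chosen with earlier results of these data known. Named were Nr1d1, all called genes, up to 4 genes of each list with the widest difference, the 5 genes with most sites (ties included), the 10 of highest level, the sites of the better measured called genes, and the 10 sites of widest difference at or above the lower quartile of signal. Further list members and the Ptges and Ccnjl sites were named after their values were seen. Some list members that the rule names are not reported here. Alternatives covered each run left out, 10 added before the logarithm, 2 scalings, filters on level, other size rules, 1 gene per symbol and protein-coding IDs only.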

Additional observations from a re-analysis of the deposited data

How the results depend on the processing

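Of the alternatives tried for counts and medians, 321 kept the value within its limits (counts within 1.5 times) and 39 moved it. No named gene or site that met a size rule changed direction under them, but medians near 0 did: centring took that of all genes from 0.035 to -0.0225, and the clock median of 0.12 was -0.06 without DKO run 1 and -0.01 without WT run 1. With 1 run left out fewer runs must be apart, and counts then ran from 33 to 67 higher genes, 17 to 27 lower, 349 to 536 with DKO above and 271 to 346 with DKO below. Genes below WT numbered 202 with centred runs and 191 after quantile normalization. By the distance of the nearest site, centring (added after seeing the data) gave 28, 42 and 35 genes below within 1 kb, at 1 to 10 kb and at 10 to 30 kb, 36 and 6 above at 30 to 100 kb and beyond 100 kb, and 39 below in the strongest binding group. Only genes at or above the lower quartile left 7 higher and 1 lower, and a size rule of 1 left 7 and 2. The clock median was 0.975 above that quartile, which Nr1d1 passed only through its DKO runs. With 1 run left out, list medians ran from -0.01 to 0.25 for corepressors and coactivators, 0.0825 to 0.2925 for lysosome and autophagy, and -0.0575 to 0.3725 for macrophage identity. With 10 added before the logarithm the mast cell, basophil and platelet median was 0.3847 (main value 0.5925, over 2 genes), and 3 sites were higher and 0 lower. Sites higher numbered 34 after centring, 208 by a size rule of 0.5 and 29 above the quartile of signal, and sites lower 165 and 13 under the last 2. No paired analysis was possible because each genotype has 1 sample and the labels give no shared replicate numbers.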

Other observations

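Some early response genes other than Fos and Dusp1, chosen after their values were seen, also read highest in DKO run 2. Zfp36, which encodes an RNA-binding protein that destabilizes cytokine mRNAs, read 10.44 and 9.98 in WT and 10.33 and 10.86 in DKO. Klf2, a transcription factor gene of quiescence, read 8.68 and 8.52 in WT and 8.55 and 9.28 in DKO. Ier3 read 7.80 and 7.69 in WT and 7.69 and 8.14 in DKO, and Ier5 read 10.41 and 10.08 in WT and 10.49 and 10.67 in DKO. In the first 3 the other DKO run lay between or at the WT runs. Egr1 did not follow, with 7.55 and 7.10 in WT and 7.46 and 7.26 in DKO.

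The site assigned to Zfp36l1 but 353256 bp from its start read 0.83 in WT and 2.48 in DKO, and the site 1959 bp upstream of Plin2 read 2.50 in WT and 3.69 in DKO. Both were chosen after their values were seen. Zfp36l1 itself had overlapping runs, with 11.05 and 10.67 in WT and 10.85 and 11.29 in DKO.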
